A study of Mus musculus with 31 samples.

Results

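The comparison described here set liver RNA of mice given small interfering RNA (siRNA) against IRE1 beside liver RNA of mice given siRNA against luciferase, a firefly enzyme with no mouse counterpart that serves as a control target. The samples were chosen by their titles, 4 labelled luciferase siRNA and 4 labelled IRE1 siRNA, which makes 8 of the 31 arrays of the series. All 8 came from male C57BL/6 mice aged 9 weeks that were labelled as Xbp1 knockouts (ko), sampled 8 days after the injection. Both groups thus share the Xbp1 knockout label, and the labels do not say how or in which cells the gene was deleted. The question named in the design text was which mRNAs are substrates of IRE1 and which are direct targets of XBP1. For reference levels, 4 male Xbp1 ko mice and 4 wild-type (WT) littermates without siRNA, aged 14 weeks, were used.

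IRE1α, encoded by Ern1, is a kinase and endoribonuclease in the membrane of the endoplasmic reticulum (ER). Under ER stress it cuts the Xbp1 mRNA, whose spliced form encodes the transcription factor XBP1, an activator of genes for protein folding, glycosylation and secretion. The same nuclease can cut other mRNAs at the ER membrane, a process called regulated IRE1-dependent decay, and IRE1α is known to be overactive in liver without XBP1. Hepatocytes make most plasma proteins and lipoproteins, so their ER carries a large load of secretory mRNAs.

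Probe set intensities were measured on an Affymetrix mouse array, and each gene was represented by 1 probe set. The median intensity was 5 on each of the 8 arrays, and between 20.7% and 22% of probe sets reached an intensity of 16, so most probe sets lay near the floor. Log2 values of arrays within a group correlated at 0.9907 to 0.9928, and across the groups at 0.9889 to 0.9916. Arrays within a group are labelled as biological replicates, and with 4 of them per group the array number sets the precision. Since whole liver was sampled, fewer cells of a type and less RNA per cell cannot be told apart.

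The targeted gene was examined first, and its level went against the labels. In the arrays labelled luciferase siRNA, Ern1 had intensities of 21, 18, 23 and 35, given here and below in the order of the replicate numbers. In those labelled IRE1 siRNA the same probe set read 169, 184, 236 and 230. The groups did not overlap, and the arrays labelled as the control were the low ones. Xbp1 ko mice without siRNA had 175, 198, 181 and 201, and WT mice had 153, 129, 156 and 140, so the arrays labelled IRE1 lay at the level of mice without siRNA. The log2 difference between the siRNA groups was 3.11 (SE 0.22; limma adjusted p = 0.000754), from means of 204.8 ± 33.3 and 24.2 ± 7.46 (SD, n = 4 each). With all 5 Ern1 probe sets averaged it was 0.67. The other 4 had means of 4.1 to 7.8, close to the floor, and their groups overlapped. Which part of the transcript the siRNA targets is not given in the labels.

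Every difference below is the value in the arrays labelled IRE1 minus that in the arrays labelled luciferase. A gene called lower was therefore lower in the arrays with high Ern1, and a gene called higher was higher there. Read by the Ern1 level instead of the labels, a lower gene is one with more RNA in the mice in which Ern1 was reduced.

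**Figure D1:**
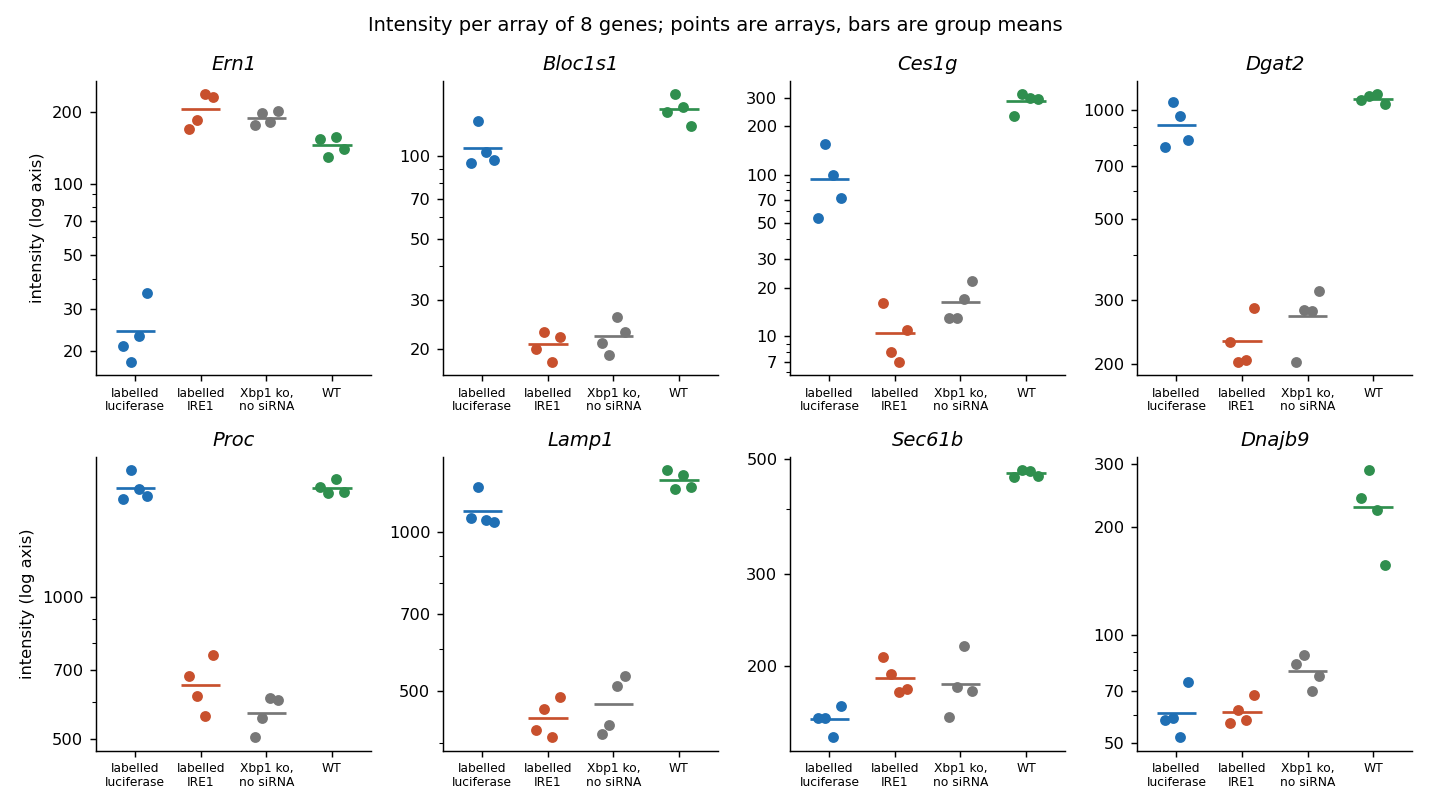
Intensity per array (log axis) of 8 genes in 4 groups of 4 arrays: labelled luciferase siRNA, labelled IRE1 siRNA, Xbp1 ko without siRNA and WT. Points are arrays and bars are group means. Ern1 was low only in the arrays labelled luciferase (18 to 35), Bloc1s1, Ces1g, Dgat2, Proc and Lamp1 were high in those arrays and in WT, and Sec61b and Dnajb9 were high in WT alone.

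Xbp1 itself did not separate the siRNA groups. Its intensities were 557, 481, 437 and 488 in the arrays labelled luciferase and 393, 549, 445 and 490 in those labelled IRE1, and the ranges overlapped. The log2 difference was -0.07 (95% interval -0.34 to 0.20; limma adjusted p = 0.78), against means of 470.0 ± 80.3 in Xbp1 ko and 943.8 ± 140 in WT without siRNA (SD, n = 4 each). Of 17 tested genes that act in or directly beside the stress sensors, Ern1 alone passed the test. Atf6, the sensor that is cut in the Golgi to release a transcription factor, stood at 0.37 (95% interval 0.07 to 0.67; limma adjusted p = 0.22). Eif2ak3, which encodes the sensor kinase PERK, stood at -0.33 with intensities of 6 to 10, near the floor. Hspa5, the main ER chaperone and a common readout of ER stress, read 662, 609, 502 and 518 against 544, 480, 496 and 432, ranges that overlapped. Its log2 difference was -0.23 (95% interval -0.48 to 0.03; limma adjusted p = 0.409).

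Across the liver transcriptome, limma called 251 of 14030 tested genes at an adjusted p below 0.05, which is 1.79%. Of these 91 (0.649% of the tested genes) were higher and 160 (1.14%) were lower in the arrays labelled IRE1. After quantile normalization the split was 65 higher and 195 lower. After shifting each array to equal medians of its brighter probe sets (common-median scaling below), it was 52 and 286. Differences reached 2-fold for 59 lower genes and 2 higher ones, Ern1 and Adgrv1. Without luciferase replicate 1, 2 or 3, the higher genes numbered 54, 60 and 55. The median difference was -0.70 among the lower genes, 0.33 among the higher genes and 0.04 over all tested genes. The arrays of the groups did not overlap for any of the 251 genes. Uncalled genes such as Sec61b and Fads2 did not overlap either, so this adds no support to a call. The share of such genes among all tested genes was not counted. A group mean of 16 or more was reached by 139 of the lower and 73 of the higher genes, out of 5897 tested genes at that level.

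**Figure D2:**
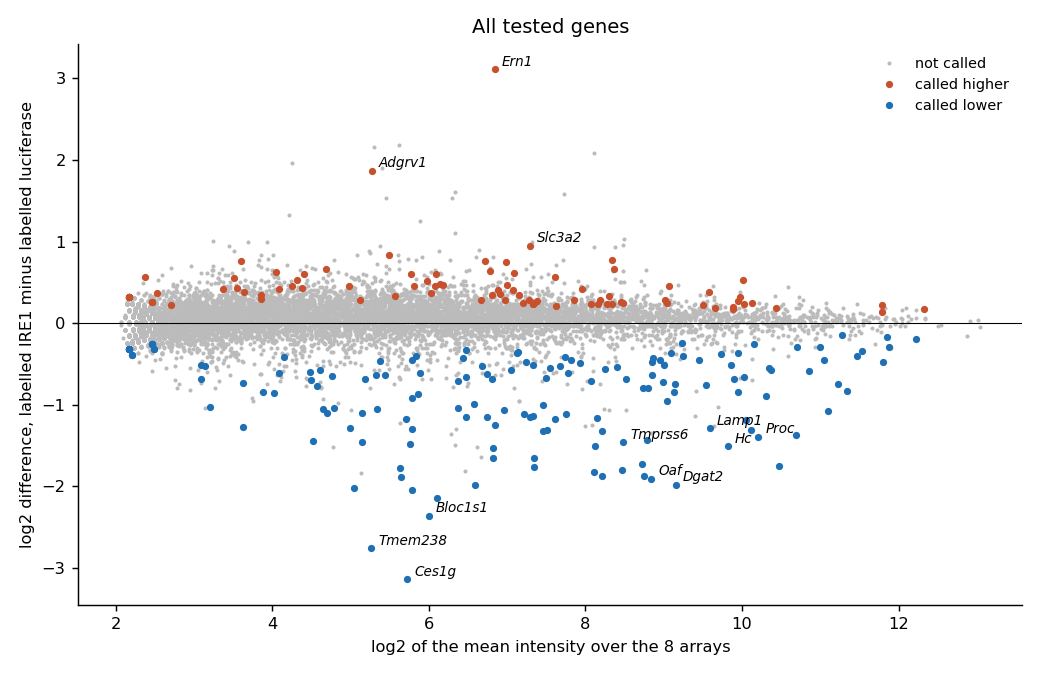
Log2 difference (arrays labelled IRE1 minus arrays labelled luciferase) against log2 of the mean intensity over the 8 arrays, for all 14030 tested genes. Blue points were called lower (160), orange points were called higher (91) and grey points were not called. The lower genes reach down to -3.14 (Ces1g), while Ern1 at 3.11 and Adgrv1 at 1.87 are the called genes above 1.

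The promoters of a few genes are shown here because genes lower in Xbp1 ko fell into classes that are described further on, one lower in the arrays labelled IRE1 and one with hardly any difference between the siRNA groups. Creld2, Pdia6 and Txndc5, an ER protein and a pair of protein disulfide isomerases, belong to the narrow class. Each of them holds a match to an element marked below, which most genes of that class with a promoter window lack, so they do not represent it. Bloc1s1, a subunit of the lysosome-related BLOC-1 and BORC complexes and a long-known IRE1 substrate, and Tmem238, a small membrane protein, belong to the lower class. Each sequence covers the 250 bases before the gene's start in RefSeq (GRCm38.p6), written along the gene's strand at chr15:88819396-88819645 (+), chr12:17266339-17266588 (+), chr13:38527915-38528164 (-, 1 of 3 windows of the gene), chr10:128923525-128923774 (-) and chr7:4789561-4789810 (-). Capitals mark a match to an ER stress element, with its spacer, or to the unfolded protein response element. For Txndc5 the window with the most matches is shown.
Creld2: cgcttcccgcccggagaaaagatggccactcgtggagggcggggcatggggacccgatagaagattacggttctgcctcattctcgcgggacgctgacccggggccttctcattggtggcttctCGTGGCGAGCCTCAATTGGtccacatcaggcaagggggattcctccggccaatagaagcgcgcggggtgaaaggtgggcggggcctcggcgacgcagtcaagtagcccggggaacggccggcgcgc
Pdia6: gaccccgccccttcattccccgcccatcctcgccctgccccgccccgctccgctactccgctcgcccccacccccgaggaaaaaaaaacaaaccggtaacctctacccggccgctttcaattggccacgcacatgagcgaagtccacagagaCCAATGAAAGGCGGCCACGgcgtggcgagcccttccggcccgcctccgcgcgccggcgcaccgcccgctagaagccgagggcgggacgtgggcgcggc
Txndc5: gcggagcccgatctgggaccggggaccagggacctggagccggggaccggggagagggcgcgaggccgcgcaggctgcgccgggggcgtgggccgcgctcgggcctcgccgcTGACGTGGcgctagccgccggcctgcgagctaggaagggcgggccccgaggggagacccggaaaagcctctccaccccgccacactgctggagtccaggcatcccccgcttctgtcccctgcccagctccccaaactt
Bloc1s1: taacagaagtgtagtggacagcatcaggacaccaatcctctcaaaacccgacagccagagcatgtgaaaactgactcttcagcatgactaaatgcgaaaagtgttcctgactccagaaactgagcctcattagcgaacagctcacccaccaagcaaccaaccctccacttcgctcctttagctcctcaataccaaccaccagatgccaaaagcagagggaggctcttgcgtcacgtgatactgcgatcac
Tmem238: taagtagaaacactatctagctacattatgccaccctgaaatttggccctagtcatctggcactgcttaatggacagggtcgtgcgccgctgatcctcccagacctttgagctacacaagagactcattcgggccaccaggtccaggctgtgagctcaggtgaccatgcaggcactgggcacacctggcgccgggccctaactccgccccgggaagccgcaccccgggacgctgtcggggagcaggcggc

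The 15 lowest genes were drawn from called genes whose arrays did not overlap and whose brighter group averaged at least 16. Bloc1s1 read 94, 134, 103 and 97 in the arrays labelled luciferase and 20, 23, 18 and 22 in those labelled IRE1. The lowest of the former lay far above the highest of the latter, and the log2 difference was -2.36 (SE 0.13; limma adjusted p = 0.000751). Xbp1 ko mice without siRNA averaged 22.2 ± 2.99 and WT mice 147.2 ± 16.1 (SD, n = 4 each), so the arrays with low Ern1 approached the WT level. Tmem238 read 42, 100, 65 and 61 against 9, 11, 9 and 9, a log2 difference of -2.76 (SE 0.24; limma adjusted p = 0.00176). Its group means of 67.0 ± 24.2 and 9.5 ± 1 (SD, n = 4 each) both lay below the WT mean of 208.5 ± 15.5. The arrays labelled IRE1 lay near the floor for Tmem238, and over the processing settings its difference ranged from -2.96 to -1.66.

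Genes of glycan and lysosomal metabolism followed. St3gal3, a sialyltransferase of the Golgi, read 86, 127, 121 and 116 against 23, 28, 24 and 26, with a log2 difference of -2.14 (SE 0.13; limma adjusted p = 0.000754). It was the only called gene among 47 tested Golgi glycosyltransferases, whose median difference was 0.07. Hgsnat, the lysosomal enzyme that acetylates heparan sulfate, read 61, 120, 86 and 88 against 20, 19, 19 and 26, and the ranges were far apart. Its log2 difference was -2.05 (SE 0.21; limma adjusted p = 0.00337). Of 12 published IRE1 substrates tested, Bloc1s1, Hgsnat and Tapbp were lower and 0 were higher, with a list median of -0.05. The share lower among all tested genes was 1.14%.

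Cell surface and matrix genes were also among the lowest. Ptprf, a receptor tyrosine phosphatase, read 121, 176, 173 and 148 against 35, 42, 40 and 37 (log2 difference -1.99; SE 0.13; limma adjusted p = 0.000754). Its other 2 probe sets gave -2.49 and -1.91. Gjb1, which encodes the main gap junction protein of hepatocytes, read 422, 487, 489 and 463 against 114, 117, 115 and 172. The groups lay apart by more than their spread, at a log2 difference of -1.87 (SE 0.14; limma adjusted p = 0.000754), and a second probe set gave -2.19. Gjb1 was the only called gene of 35 tested junction genes, which had a median of 0.08. Col18a1, the precursor of endostatin, read 370, 481, 453 and 417 against 122, 128, 125 and 111, with the smallest standard error of these genes (log2 difference -1.82; SE 0.09; limma adjusted p = 0.000701). A second Col18a1 probe set, with a mean of 290.9 beside 275.9, gave a smaller difference of -1.21.

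The remaining genes of the 15 were a secreted protein, a hormone receptor, an ER-phagy receptor and enzymes of lipid metabolism. Oaf, a secreted protein, read 682, 708, 738 and 754 against 259, 177, 140 and 207, a log2 difference of -1.91 (SE 0.17; limma adjusted p = 0.00184). Paqr7, a membrane progestin receptor, averaged 78.5 ± 14.6 against 21.2 ± 3.77 (SD, n = 4 each; log2 difference -1.88). For both, the arrays with low Ern1 lay above the WT means of 574.2 ± 44.8 and 52.0 ± 4.24 (SD, n = 4 each). Tex264, which recruits ER membrane to autophagosomes, read 66, 94, 80 and 68 against 20, 23, 20 and 27 (log2 difference -1.77; SE 0.15; limma adjusted p = 0.00128). Retreg2, another ER-phagy receptor, was lower by a log2 difference of -0.51 (SE 0.06; limma adjusted p = 0.00866). The other 29 of 31 tested genes of autophagy and ER-phagy were not called, and the list median was 0.02. Among all tested genes 1.14% were lower.

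Lipid genes were led by Dgat2, which makes triglyceride from diacylglycerol. It read 791, 1055, 963 and 828 in the arrays labelled luciferase and 230, 203, 205 and 286 in those labelled IRE1. The former lay near the WT mean of 1078 ± 30.7 and the latter near the Xbp1 ko mean of 270.5 ± 48.4 (SD, n = 4 each). The log2 difference was -1.98 (SE 0.14; limma adjusted p = 0.000754), and a second probe set gave -2.38. Agpat3, an earlier enzyme of the same route, was lower by -0.57 (SE 0.07; limma adjusted p = 0.00748). The other 28 of 30 tested triglyceride synthesis genes were not called, with a list median of 0.03, beside 1.14% lower among all tested genes.

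Of 13 tested carboxylesterases, which hydrolyse ester bonds in lipids and drugs, 5 were lower and 0 higher, against 1.14% lower among all tested genes. Ces1g read 54, 154, 99 and 72 against 16, 8, 7 and 11, a log2 difference of -3.14 (SE 0.38; limma adjusted p = 0.00765). The latter arrays lay near the floor, and over the processing settings the Ces1g difference ranged from -3.37 to -2.0. Ces1c read 1745, 3013, 2199 and 1818 against 565, 619, 690 and 678 (log2 difference -1.75; SE 0.17; limma adjusted p = 0.00299). In both genes replicate 2 of the arrays labelled luciferase was the highest array. Ces1f, Ces1e and Ces1d stood at -1.87, -2.02 and -1.80, and the list median was -0.80. Ces1e and Ces1d each lost the call in 6 of 8 leave-one-array-out fits (Ces1e in all but those without luciferase replicate 1 and IRE1 replicate 1, adjusted p up to 0.064; Ces1d in all but those without luciferase replicates 1 and 4, adjusted p up to 0.101). These paralogs are alike in sequence and a probe set may read several of them, and part of the list was chosen by the study on these samples.

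Genes of fatty acid and sterol synthesis lay near the threshold in several cases. Their counts stand beside 1.14% lower among all tested genes. Tecr, which reduces the double bond in fatty acid elongation, was the only one of 21 tested lipogenic genes to be called, reading 607, 592, 656 and 612 against 457, 485, 495 and 477 (log2 difference -0.37; SE 0.04; limma adjusted p = 0.00714). Fads2, a desaturase, stood at -0.95 (95% interval -1.40 to -0.49; limma adjusted p = 0.0678) and Elovl5, an elongase, at -0.83 (adjusted p = 0.0763). Of 21 tested cholesterol synthesis genes 19 lay below 0 and the median was -0.69, but only Fdps, which makes farnesyl pyrophosphate, and Tm7sf2, a sterol reductase, were called. Fdps read 352, 272, 523 and 503 against 149, 147, 175 and 104 (log2 difference -1.50; SE 0.25; limma adjusted p = 0.0311). Both Fdps and Tm7sf2 (-0.72) lost the call in 7 of 8 leave-one-array-out fits, all but the one without luciferase replicate 2 (adjusted p up to 0.0908 and 0.132). Cyp51 read 77, 105, 188 and 183 against 34, 40, 56 and 24, with an adjusted p = 0.0646 by limma. Fads2, Elovl5 and Cyp51 were called under common-median scaling (adjusted p of 0.00234, 0.00216 and 0.00112) and with the filter at a group mean of 16. Tm7sf2 was not called after quantile normalization. Within the arrays labelled luciferase, replicates 3 and 4 read higher than replicates 1 and 2 for Fdps and Cyp51, which widened the spread of these genes.

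Secreted plasma proteins made up the largest listed block of lower genes. Of 85 tested genes on a list of complement and coagulation factors and a list of plasma carriers and inhibitors, 25 (29.4%) were lower and 0 higher, against 1.14% lower among all tested genes. Nearly all of the listed genes reached a group mean of 16, and 139 of all 5897 tested genes at that level were lower. The lists were chosen with earlier results of these data known, so the listed share is a description without a test. Proc, the zymogen of the anticoagulant protein C, read 1617, 1866, 1703 and 1646 against 682, 616, 559 and 753. The log2 difference was -1.39 (SE 0.10; limma adjusted p = 0.000754), and the mean in the arrays labelled luciferase, 1708 ± 111, was close to the WT mean of 1712 ± 57.1 (SD, n = 4 each). Hc, complement component C5, read 1227, 1653, 1229 and 1235 against 419, 454, 581 and 422 (log2 difference -1.51; SE 0.14; limma adjusted p = 0.00212). F2, prothrombin, read 2922, 3168, 3064 and 2823 against 1777, 1736, 1687 and 1989, a smaller but narrow difference of -0.74 (SE 0.06; limma adjusted p = 0.00112).

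The complement and coagulation list had 15 lower genes of 40 tested and a median of -0.27. F7, the factor that starts coagulation with tissue factor, averaged 258 ± 21.5 against 105.8 ± 25.3 (SD, n = 4 each; log2 difference -1.31; SE 0.16; limma adjusted p = 0.00886). Clu, an extracellular chaperone, stood at -0.83 and Fgg, the gamma chain of fibrinogen, at -0.47. Fgg read 4132, 4128, 4200 and 4127 against 3091, 2709, 3051 and 3112, and its Xbp1 ko mean of 4001 ± 295 lay close to the WT mean of 4444 ± 220 (SD, n = 4 each). Serping1, the inhibitor of complement C1, lay outside the list and was chosen after its values were seen. It read 1561, 1765, 1509 and 1474 against 599, 622, 642 and 679 (log2 difference -1.31; SE 0.07; limma adjusted p = 0.000701).

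Among the carriers and inhibitors 10 of 45 tested genes were lower, with a median of -0.17. Afm, which carries vitamin E, read 594, 675, 683 and 612 against 228, 203, 229 and 304 (log2 difference -1.43; SE 0.12; limma adjusted p = 0.00167). Itih4, an inter-alpha-trypsin inhibitor heavy chain of the acute phase, read 2218, 2700, 2090 and 2502 against 988, 802, 937 and 953, a log2 difference of -1.37 (SE 0.10; limma adjusted p = 0.000754). Azgp1, a fat-mobilising plasma protein, stood at -1.08, Cpn2, a subunit of carboxypeptidase N, at -0.85 and Mst1, a hepatocyte-derived ligand of macrophages, at -0.56. Not called were albumin (Alb), at -0.05 (95% interval -0.13 to 0.03; adjusted p = 0.553), and Apoa1, at -0.16 (adjusted p = 0.148). Of 15 tested apolipoproteins only Apon, at -0.74 (SE 0.09; limma adjusted p = 0.00794), was lower, and the list median was 0.01.

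Lysosomal proteins, which pass through the ER as well, had 6 lower genes of 53 tested and a median of -0.03. The share lower among all tested genes was 1.14%. Lamp1, a main protein of the lysosomal membrane, read 1059, 1215, 1050 and 1043 against 423, 464, 410 and 488. The log2 difference was -1.29 (SE 0.07; limma adjusted p = 0.000751). Gm2a, the activator of ganglioside breakdown, read 197, 239, 236 and 211 against 106, 104, 87 and 105 (log2 difference -1.14; SE 0.09; limma adjusted p = 0.00112), and the peptidase Tpp1 stood at -1.11 (SE 0.10; limma adjusted p = 0.00176). The others besides Hgsnat were Manba at -0.58 and Ctsb at -0.36 (not called with its probe sets averaged). Ctsb lost the call in 5 of 8 leave-one-array-out fits (those without luciferase replicate 3 or 4 or IRE1 replicate 1, 2 or 3; adjusted p up to 0.0641) and Manba in those without luciferase replicate 3 or IRE1 replicate 3 (adjusted p up to 0.0504).

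At the cell surface, 3 of 52 tested receptors and surface proteins were lower and 1 was higher, with a median of -0.01. Among all tested genes 1.14% were lower and 0.649% higher. Lrp1, the endocytic receptor for remnant lipoproteins, read 208, 298, 238 and 262 against 94, 99, 100 and 107 (log2 difference -1.32; SE 0.11; limma adjusted p = 0.00128). Averaged over its probe sets, Lrp1 stood at -0.67 and was not called (adjusted p = 0.0929). The other Lrp1 probe set had a mean of 7.4, close to the floor. Cd81, a tetraspanin, read 911, 928, 934 and 956 against 531, 546, 608 and 518, one of the narrowest spreads (log2 difference -0.76; SE 0.05; limma adjusted p = 0.000754). Another tetraspanin, Cd151, was called higher at 0.29 (adjusted p = 0.0274), a call lost in 5 of 8 leave-one-array-out fits (those without luciferase replicate 1, 3 or 4 or IRE1 replicate 1 or 2; adjusted p up to 0.0752), under common-median scaling and with its probe sets averaged. Tmprss6, the membrane protease that restrains hepcidin, was the only called gene of 17 tested iron genes. It read 475, 566, 531 and 526 against 184, 182, 180 and 220, a log2 difference of -1.46 (SE 0.08; limma adjusted p = 0.000751).

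Hepatic transporters and antigen presentation each had several lower members. The transporters had 3, beside 1.14% lower among all tested genes. Of 38 tested transporters, Abcb4, the phosphatidylcholine pump of bile, read 708, 763, 667 and 647 against 382, 315, 350 and 398 (log2 difference -0.95; SE 0.09; limma adjusted p = 0.00184). Slc27a5, which activates bile acids for conjugation, stood at -0.59 and the organic anion carrier Slco2b1 at -0.71. The call of Slco2b1 was lost in 6 of 8 leave-one-array-out fits, all but those without IRE1 replicates 1 and 3 (adjusted p up to 0.0886). Of 16 tested genes of the MHC class I route 4 were lower, against 1.14% of all tested genes. Tapbp, tapasin of the peptide-loading complex, read 225, 335, 252 and 278 against 113, 115, 128 and 122, a log2 difference of -1.18 (SE 0.12; limma adjusted p = 0.00337). H2-T23 stood at -0.68 (SE 0.06; limma adjusted p = 0.00176), H2-Q10 at -0.29 and H2-K1 at -0.15, and these last 2 lost the call in 5 of 8 such fits (adjusted p up to 0.0638) and 6 of 8 (up to 0.102). For H2-Q10 the losses came without luciferase replicate 1 or 2 or IRE1 replicate 2, 3 or 4, and for H2-K1 in all but those without luciferase replicate 1 and IRE1 replicate 3. Averaged over its probe sets, H2-T23 stood at -0.34 (adjusted p = 0.11), with its other probe set at the floor (mean 4.5). The heavy chain genes are alike in sequence as well, so a probe set may read several of them.

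Lower genes also included a mitochondrial and a cytosolic enzyme and several cytochromes P450 of the ER membrane. The cytochromes P450 had 3 lower genes, beside 1.14% lower among all tested genes. Ndufa9, a subunit of respiratory complex I, read 411, 446, 404 and 433 against 181, 167, 142 and 194, a log2 difference of -1.32 (SE 0.10; limma adjusted p = 0.000754). It stood far from the other 32 tested complex I genes, whose list median was 0.08 and whose only other call was Ndufb5, higher at 0.25. Taldo1, transaldolase of the pentose phosphate route, was lower by -0.61 (SE 0.07; limma adjusted p = 0.00764). Ndufb5 lost the call in 7 of 8 leave-one-array-out fits, all but the one without luciferase replicate 4 (adjusted p up to 0.0963), and under common-median scaling. Of 34 tested cytochromes P450, Cyp1a2 read 1598, 1593, 1578 and 1768 against 775, 954, 718 and 1135 (log2 difference -0.89; SE 0.14; limma adjusted p = 0.0256), and Cyp2f2 and Cyp2e1 stood at -0.34 and -0.29. Those calls were lost in 7, 5 and 7 of 8 such fits. Cyp1a2 and Cyp2e1 kept theirs in the fit without IRE1 replicate 4 alone, and Cyp2f2 in those without luciferase replicate 1, IRE1 replicate 2 or IRE1 replicate 3 (adjusted p up to 0.0775, 0.0876 and 0.0853).

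**Figure D3:**
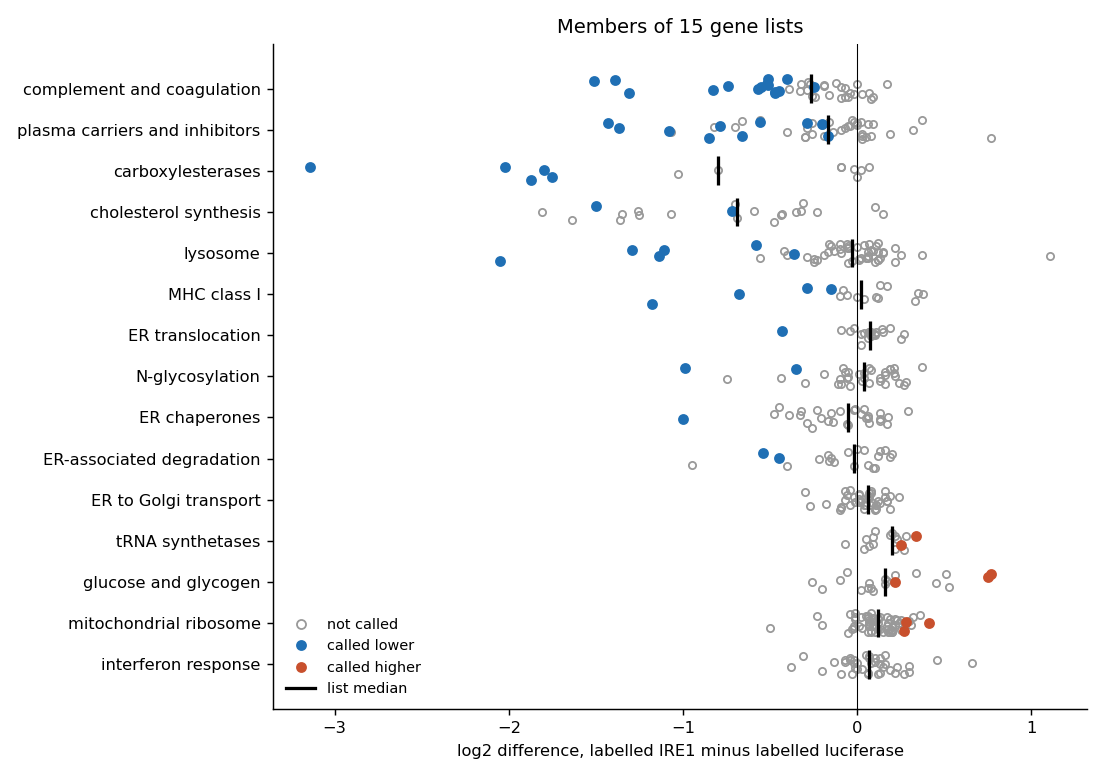
Log2 difference (arrays labelled IRE1 minus arrays labelled luciferase) of the tested members of 15 gene lists. Each circle is a gene, filled blue where called lower and orange where called higher, and the black bar is the list median. The complement and coagulation list holds 15 genes called lower and the carboxylesterase list 5, while the ER translocation (median 0.08) and ER to Golgi transport (0.06) lists are centred near 0.

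Of 150 tested genes for ER translocation, N-glycosylation, ER chaperones, ER-associated degradation and ER to Golgi transport, 6 (4.0%) were lower and 0 were higher, with a median of 0.04, against 1.14% lower among all tested genes. Most of the 150 reached a group mean of 16, and 139 of all 5897 tested genes at that level were lower. The lower ER genes were Rpn1 and Rpn2, subunits of oligosaccharyltransferase, Erp44, which retains unassembled secretory proteins, Sil1, a partner of the chaperone Hspa5, and Os9 and Marchf6, which act in ER-associated degradation. Rpn1 read 111, 139, 119 and 137 against 63, 71, 53 and 69 (log2 difference -0.99; SE 0.12; limma adjusted p = 0.00724). Erp44 read 212, 270, 223 and 233 against 124, 113, 99 and 134, a log2 difference of -1.0 (SE 0.11; limma adjusted p = 0.00563). In both genes the arrays labelled luciferase lay well below the WT means of 197.5 ± 26.6 and 524.2 ± 19.6 (SD, n = 4 each). Marchf6 stood at -0.54 (SE 0.06; limma adjusted p = 0.00478) and Os9, Sil1 and Rpn2 at -0.45, -0.43 and -0.35. These last 3 lost the call in 5, 4 and 7 of 8 leave-one-array-out fits: Os9 without luciferase replicate 1, 2 or 3 or IRE1 replicate 1 or 2, Sil1 without luciferase replicate 3 or IRE1 replicate 1, 2 or 3, and Rpn2 in all but the fit without luciferase replicate 1 (adjusted p up to 0.0913, 0.071 and 0.0763). With probe sets averaged within each gene, Erp44 (-0.72), Marchf6 (-0.13) and Os9 lost the call too. The other probe set of each was dimmer, with means of 7.4, 6.4 and 23.2 over the 8 arrays. The number of lower ER genes was 11 after quantile normalization, 10 under common-median scaling and 3 without luciferase replicate 3, IRE1 replicate 1 or IRE1 replicate 2.

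Genes lower in Xbp1 ko were then followed into the siRNA groups. In the comparison of Xbp1 ko with WT mice without siRNA, 290 of 14008 tested genes (2.07%) were lower in Xbp1 ko, and 289 of them were tested in both comparisons. The mice differ in age from the siRNA mice and no array is shared. Of the 289 genes, 103 (35.6%) were also called lower in the arrays labelled IRE1 and 0 were called higher. Another 102 (35.3%) were not called and had a 95% interval of the siRNA difference that lay within 0.5 of 0 on the log2 scale, a state shared by 79.6% of all tested genes. The remaining 84 genes were not called and had wider intervals. Seen from the other side, the 103 genes were 66.9% of the 154 genes lower between the siRNA groups and tested in both.

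The listed genes among these 289 were counted by class, with no test of a difference between lists. Of 55 ER machinery genes that were lower in Xbp1 ko, 5 (9.09%) were called lower in the arrays labelled IRE1, against 35.6% of all 289. Another 41 (74.5%) had an interval within 0.5 of 0, against 35.3% of the 289 and 79.6% of all tested genes, and 9 had wider intervals. A narrow interval was thus about as frequent in them as among tested genes at large. Their median siRNA difference was 0.02 beside a median Xbp1 ko difference of -0.90. Of 19 plasma protein genes lower in Xbp1 ko, 17 (89.5%) were called lower in the arrays labelled IRE1 and 2 had narrow intervals, with medians of -0.74 and -0.62. Of 16 tested ER to Golgi transport genes lower in Xbp1 ko, 13 had narrow intervals and 0 were called. Of 12 ER translocation genes, 11 had narrow intervals and 1 was called lower. All 4 MHC class I genes and 5 of 7 lysosomal genes lower in Xbp1 ko were called lower in the arrays labelled IRE1.

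**Figure D4:**
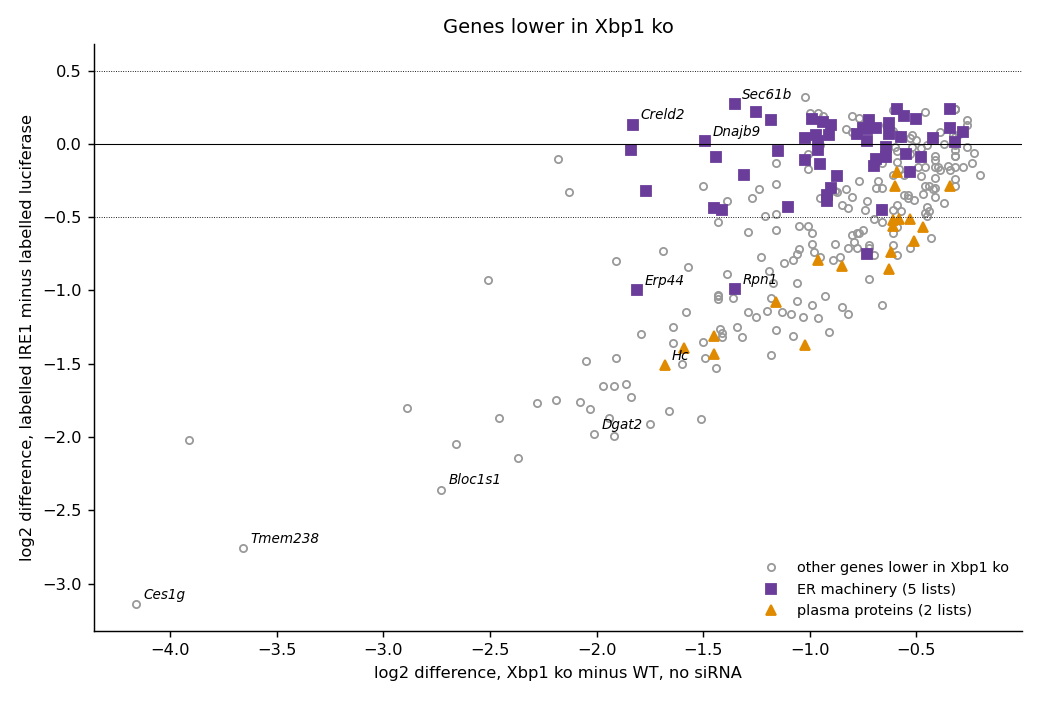
Log2 difference between the siRNA groups (arrays labelled IRE1 minus arrays labelled luciferase) against the log2 difference between Xbp1 ko and WT mice without siRNA, for 289 genes lower in Xbp1 ko. Purple squares are ER machinery genes (55), orange triangles are plasma proteins (19) and grey circles are other genes, with dotted lines at 0.5 and -0.5. ER machinery genes lie mostly between the dotted lines, and most plasma proteins lie below -0.5.

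The 10 genes with the largest fall in Xbp1 ko among those with narrow intervals were Creld2, Dnajb9, Sec11c, Sec61b, Txndc5, Ostc, Edem2, Ikbke, Ddost and Stt3a. All but Ikbke, a kinase of innate immunity, act in or at the ER. Creld2 read 41, 53, 49 and 47 in the arrays labelled luciferase and 56, 57, 52 and 43 in those labelled IRE1, beside 54.5 ± 9.04 in Xbp1 ko and 200.8 ± 63.8 in WT (SD, n = 4 each). Its log2 difference of 0.13 had a 95% interval of -0.14 to 0.40, with overlapping groups. Dnajb9, the co-chaperone ERdj4 and a marker of XBP1 activity, read 58, 59, 52 and 74 against 57, 62, 58 and 68, and both groups lay below every WT array. Its log2 difference was 0.02 (95% interval -0.25 to 0.29), and -0.05 after quantile normalization. Ddost, an oligosaccharyltransferase subunit like the lower Rpn1, averaged 128.8 ± 14.8 against 124.2 ± 14.6 (SD, n = 4 each), with an interval of -0.31 to 0.21. Stt3a, the catalytic subunit of that enzyme, had an interval of -0.31 to 0.10.

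Sec61b, a subunit of the translocation channel, deviated within this class. It read 159, 159, 146 and 168 against 208, 193, 178 and 181, so the groups did not overlap, but its difference of 0.27 (95% interval 0.11 to 0.42) missed the threshold at an adjusted p = 0.123 by limma. The WT mean was 469.2 ± 7.27 (SD, n = 4), far above both. Txndc5 read 281, 326, 274 and 264 against 245, 272, 206 and 268, with overlapping groups and an interval of -0.46 to 0.04. A second Txndc5 probe set gave -0.32 (limma adjusted p over probe sets = 0.323). In Ostc and Edem2, an accessory subunit of oligosaccharyltransferase and a mannosidase-like protein of ER-associated degradation, the differences were 0.22 and 0.16.

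Promoter windows from 250 bases before to 50 bases after the gene start were found for 82 of the 103 genes in the lower class and for 89 of the 102 in the narrow class. A gene was counted for an element when any of its windows held a match. The number of windows per gene was not compared between the classes. The ER stress element (CCAAT, 9 bases of any kind, CCACG; both strands) was found in 0 of 82 and in 3 of 89, namely Creld2, Dnajc3 and Pdia6, against 18 of 11250 tested genes with a window (0.16%). In the Creld2 promoter printed above it lies on the opposite strand and begins 126 bases before the start. Its shorter form ERSE-II (ATTGG, 1 base of any kind, CCACG) was found in 0 of 82 and 2 of 89 (Krtcap2 and Nucb1), against 8 of 11250. The unfolded protein response element TGACGTGG was found in 0 of 82 and 5 of 89, which were Gcat, Sec24d, Smim14, Stx5a and Txndc5, against 104 of 11250 (0.924%). Its core CCACGT, which overlaps that element on the opposite strand, was found in 8 of 82 (9.76%), in 24 of 89 (27.0%) and in 1389 of 11250 (12.3%). The sterol regulatory element TCACCCCAC occurred in 1 of 82 and 2 of 89, and the amino acid response element TTGCATCA in 3 of 82 and 0 of 89, beside 82 and 86 of 11250. Over all 32851 windows the ER stress element was in 0.119%, ERSE-II in 0.0365%, TGACGTGG in 0.676%, CCACGT in 8.31%, TCACCCCAC in 0.551% and TTGCATCA in 0.895%. A match describes letters in a window and is neither a measured binding site nor a cause.

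The levels of the lower class can be placed between those of mice without siRNA. With the mean log2 level of Xbp1 ko set to 0% and that of WT to 100%, the median position of the 103 lower genes was 91.9% in the arrays labelled luciferase (quartiles 74.2% and 118%) and 3.51% in the arrays labelled IRE1 (quartiles -20.2% and 26.6%). For the 102 narrow genes it was 11% (quartiles -16.0% and 54.5%) and 19.6% (quartiles -12.3% and 49.6%), a wide spread in both groups. Both classes were defined by these same differences, so the positions are a description without a test. Of the 154 genes lower between the siRNA groups and tested in both comparisons, 148 lay below 0 in Xbp1 ko, and 51 were not called there.

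**Figure D5:**
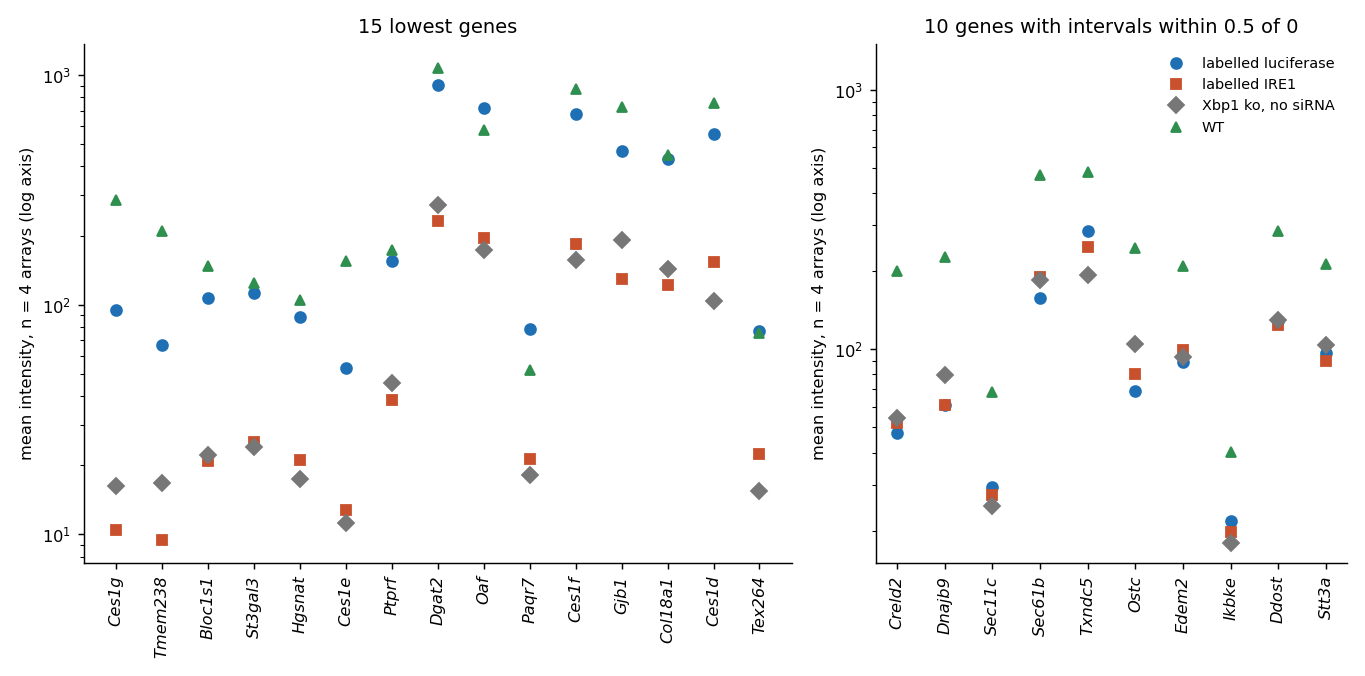
Mean intensity (log axis, n = 4 arrays) of the 15 lowest genes (left) and of 10 genes with narrow intervals and a large fall in Xbp1 ko (right) in 4 groups. On the left each gene is higher in the arrays labelled luciferase than in those labelled IRE1. Dgat2 (909.2) lies near WT (1078) there, Ces1g (94.8) and Tmem238 (67.0) lie well below it (285.0 and 208.5) and Paqr7 (78.5) above it (52.0). On the right both siRNA groups lie nearer to Xbp1 ko than to WT, as for Dnajb9 (60.8, 61.2 and 79.5 against 227.2 in WT). Txndc5 (286.2 and 247.8) lies between Xbp1 ko (192.8) and WT (480.8).

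Other called genes of the ER and its cargo were chosen after their values were seen. Mlec, an ER lectin for newly made glycoproteins, read 44, 58, 50 and 56 against 18, 17, 17 and 24 (log2 difference -1.46; SE 0.14; limma adjusted p = 0.0026). A second Mlec probe set of similar brightness gave -0.46 (limma adjusted p over probe sets = 0.229), and the average of its probe sets -0.67. Furin, the protease that matures proproteins in the Golgi, stood at -1.18 (SE 0.14; limma adjusted p = 0.00748). Fn1, plasma fibronectin, read 1541, 1596, 1389 and 1384 against 633, 534, 703 and 737 (log2 difference -1.19; SE 0.11; limma adjusted p = 0.00176).

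Genes called higher in the arrays labelled IRE1 differed by less. After Ern1, Adgrv1, an adhesion receptor of the G protein-coupled class, read 15, 14, 21 and 15 in the arrays labelled luciferase and 82, 40, 72 and 50 in those labelled IRE1. The log2 difference was 1.87 (SE 0.25; limma adjusted p = 0.0118), and Xbp1 ko mice without siRNA averaged 47.0 ± 27.5 against 10 ± 1.41 in WT (SD, n = 4 each). Tgfbr1, a receptor for TGF-beta, read 31, 27, 35 and 37 against 60, 57, 59 and 55 (log2 difference 0.84; SE 0.10; limma adjusted p = 0.00783). Its mean in the arrays labelled IRE1, 57.8 ± 2.22, lay near that of Xbp1 ko, 55.2 ± 4.99 (SD, n = 4 each). Averaged over its probe sets, Tgfbr1 stood at 0.31 and was not called, with its other probe sets at the floor (means 4.4 and 4.0). Of the 90 higher genes tested in both comparisons, 10 were also higher in Xbp1 ko, 80 were not called there and 0 were lower.

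Genes of amino acid transport and tRNA charging held a few higher members, beside 0.649% higher among all tested genes. Slc3a2, the heavy chain shared by several amino acid transporters, read 93, 123, 102 and 109 against 178, 226, 208 and 209, and the groups lay far apart. The log2 difference was 0.95 (SE 0.10; limma adjusted p = 0.00523), and Xbp1 ko mice without siRNA lay between, at 145.0 ± 23.7 (SD, n = 4). Slc7a5, a light chain of the same transporter, was at the floor, with 5 in every array labelled luciferase and 6 in every array labelled IRE1, so its call rests on a single rounding step. Of 30 tested genes downstream of PERK and ATF4 these 2 were called, 18 lay above 0 and 11 below, and the median was 0.09, while Atf4 itself stood at 0.37 (adjusted p = 0.102). Among 17 tested cytosolic tRNA synthetases 16 lay above 0 and 1 below, with a median of 0.20. Nars at 0.25 and Mars1 at 0.34 were called. Mars1 lost its call in each of the 8 leave-one-array-out fits (adjusted p up to 0.0913), and Nars in 6, all but those without luciferase replicate 4 and IRE1 replicate 4 (adjusted p up to 0.0836). Both also lost it after quantile normalization and under common-median scaling.

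Sugar metabolism held 3 called genes of 20 tested, all higher, against 0.649% higher among all tested genes, and its median was 0.16. Fbp1, the gluconeogenic fructose bisphosphatase, read 3362, 3337, 3178 and 3171 against 3845, 3798, 3810 and 3730, a narrow difference of 0.22 (SE 0.03; limma adjusted p = 0.00714). It was not called under common-median scaling. Gbe1, the glycogen branching enzyme, read 111, 87, 98 and 83 against 170, 145, 176 and 145 (log2 difference 0.75; SE 0.11; limma adjusted p = 0.0207). Tkfc, which phosphorylates glyceraldehyde from fructose, stood at 0.77 (SE 0.14; limma adjusted p = 0.0452). Gpd1, which turns a glycolytic intermediate into glycerol phosphate, read 244, 240, 277 and 253 against 475, 416, 355 and 370 (log2 difference 0.67; SE 0.10; limma adjusted p = 0.0197). A second bright Gpd1 probe set gave 0.49 (limma adjusted p over probe sets = 0.187), and averaged over its probe sets Gpd1 stood at 0.32 and was not called. After quantile normalization Gbe1 and Tkfc were not called. Leaving out 1 array ended the call of Gbe1 in 4 of 8 fits (without luciferase replicate 2 or 3 or IRE1 replicate 1 or 3; adjusted p up to 0.068), of Gpd1 in 4 (without luciferase replicate 1, 2 or 4 or IRE1 replicate 2; up to 0.0668) and of Tkfc in 6 (all but those without luciferase replicate 3 and IRE1 replicate 4; up to 0.128). The other genes among the 10 highest were Tcirg1, a proton pump subunit (0.76), Zcchc9 (0.66) and Bcl7c, a chromatin remodelling subunit (0.64), which lost the call in 6, 7 and 6 such fits. Tcirg1 kept it without luciferase replicate 1 or IRE1 replicate 4, Zcchc9 without luciferase replicate 1, and Bcl7c without luciferase replicate 3 or IRE1 replicate 2 (adjusted p up to 0.1, 0.0972 and 0.0781). Zcchc9 was also not called after quantile normalization, nor Bcl7c with its probe sets averaged (0.32). The other Bcl7c probe set had a mean of 4.0, at the floor.

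Called genes of the mitochondrial lists other than Ndufa9 had small differences, beside a median of 0.08 over all tested genes with a group mean of 16 or more. Among all tested genes 0.649% were higher and 1.14% lower. Of 65 tested mitochondrial ribosome genes, 3 were higher (Mrps10, Mrpl28 and Mrps22), 0 were lower and 54 lay above 0, with a median of 0.12. Mrps10 read 108, 117, 116 and 124 against 163, 156, 148 and 149, a log2 difference of 0.41 (SE 0.06; limma adjusted p = 0.0154). Mrpl28 at 0.28 lost the call without luciferase replicate 3 or IRE1 replicate 1 (adjusted p up to 0.0518), and Mrps22 at 0.27 without luciferase replicate 2 or 3 or IRE1 replicate 2 (up to 0.0536). Neither was called under common-median scaling, nor Mrps22 after quantile normalization. Averaged over its probe sets, Mrpl28 stood at 0.10 and was not called, and Mrps10 (0.41) lost the call in one fit of all 31 arrays. The other Mrpl28 probe set had a mean of 8.8, close to the floor. Of 38 tested subunits of complexes II to V, Atp5d and Atp5o, of the ATP synthase, were lower by -0.38 and -0.24, and Uqcrq, of complex III, was higher by 0.27. Atp5d kept its call only without IRE1 replicate 4, Atp5o only without luciferase replicate 4 or IRE1 replicate 1, and Uqcrq only without luciferase replicate 1 or 2 or IRE1 replicate 1 (adjusted p up to 0.0853, 0.0587 and 0.0693 in the leave-one-array-out fits). Uqcrq was not called under common-median scaling. Of 25 tested genes of fatty acid oxidation, Hadhb, the thiolase of the trifunctional protein, and Acadvl, the very-long-chain dehydrogenase, were higher by 0.25 (SE 0.03; limma adjusted p = 0.00714) and 0.24 (SE 0.03; limma adjusted p = 0.00866). Hadhb and Acadvl were not called under common-median scaling.

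Several other lists had no called member, beside 1.79% called among all tested genes. In lists of this size a count of 0 says little about the members. With limma, 0 of 39 tested interferon response genes, 0 of 24 inflammatory genes, 0 of 33 proteasome genes, 0 of 42 ribosomal protein genes, 0 of 30 genes of amino acid and urea metabolism and 0 of 29 hepatocyte transcription factors passed, with medians of 0.07, 0.07, 0.08, 0.01, 0.01 and 0.03. Below a mean of 16 in both groups were 15 of the interferon and 17 of the inflammatory genes. Differences of the hepatocyte transcription factors ranged from -1.3 to 1.9. Igtp, an interferon-induced GTPase, stood at 0.66 (adjusted p = 0.124). Dusp1, an immediate early phosphatase sensitive to handling, read 276, 337, 317 and 445 against 576, 590, 528 and 442, which overlapped, at a log2 difference of 0.65 (adjusted p = 0.11). Two-sided unadjusted p-values below 0.05 were found for 2076 of all 14030 genes.

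Markers of other liver cells were given beside these results. All 10 hepatocyte markers averaged above 16, and their summed intensity was 42699 to 45169 in the arrays labelled luciferase and 42806 to 43437 in those labelled IRE1. Kupffer cell markers, from resident macrophages, had 16 of 17 tested members above 0, a median of 0.26 and 0 called, and their sums of 2069 to 3037 and 2349 to 3104 overlapped. C1qa, a complement gene of macrophages, stood at 0.56 (adjusted p = 0.218) and Clec4f, which defines Kupffer cells, at 0.28 (adjusted p = 0.328). Endothelial markers had 13 of 17 tested members above 0 and 3 below, a median of 0.10 and 0 called. Their sums of 1133 to 1229 and 1150 to 1329 overlapped. Markers of stellate cells and fibroblasts had 13 of 14 tested members above 0, a median of 0.17 and 0 called. The median over all tested genes with a group mean of 16 or more was 0.08. Stellate and fibroblast sums, 1210 to 1359 in the arrays labelled luciferase and 1418 to 1777 in those labelled IRE1, did not overlap. Of the 17 markers summed 9 averaged below 16, so bright ones such as Dcn and Ecm1 weigh most. Col3a1 read 68, 69, 84 and 102 against 105, 107, 208 and 164 (log2 difference 0.81; adjusted p = 0.183 by limma) and Lum, at 0.66, also missed the threshold. The part of these cells in any result was not tested. All 13 monocyte and neutrophil markers averaged below 16, as did 14 of 15 lymphocyte markers, of which Gzma was called on a step from 5 to 6.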

How the data were processed

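Liver RNA was hybridised to Affymetrix mouse arrays. The deposited values are linear intensities made by the authors with RMA in the affy package, per the submitters' processing notes, which give no versions. They are rounded to whole numbers, and whether all 31 arrays were normalised in one run is not given in the sources used here. Of 45037 probe sets, 28898 have 1 gene symbol in the platform annotation, 551 several and 15588 none. Each of 17097 genes was represented by its probe set with the highest mean over 31 arrays. Genes above the 30th percentile in at least 3 of the 8 arrays were tested (14030).

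Log2 intensities were fitted with limma 3.58.1 in R 4.3.3 (lmFit, eBayes with trend), without a block, and p-values were adjusted over all tested genes by the Benjamini-Hochberg method (threshold 0.05). Intensities carry no read depth, so the number of arrays limits the precision. Groups came from the sample titles. The scripts were tested on simulated data. The text names the 15 lowest and 10 highest called genes whose arrays did not overlap and whose brighter group averaged at least 16, up to 5 called and 2 uncalled genes of each list, and the 10 narrow-interval genes with the largest fall in Xbp1 ko. Genes named outside this rule, among them Alb, Apoa1 and those singled out in the text, were chosen after their values were seen. The members and the 46 pathway and 10 cell type lists were chosen with earlier results of these data known. Promoter sequences came from RefSeq (GRCm38.p6). Same-numbered arrays of the groups did not deviate together (correlations of -0.111 to 0.049), so the numbers were not used to pair them. Alternatives covered normalization, scaling, filters, probe set choice, an offset, the variance model, a fit of all arrays, a replicate block and leaving out each array. The other 15 arrays of the series entered only the choice of probe set and the fit of all arrays.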

Additional observations from a re-analysis of the deposited data

Results flagged for a closer look

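Among 236 groups of 4 arrays examined for the genes named, 17 held an array that lay apart by Dixon's criterion, and chance flags about 1 in 20 groups. In the arrays labelled IRE1 the highest array lay apart for Tmem238 (11, nearest 9), Hgsnat (26, nearest 20), Gjb1 (172, nearest 117), Tmprss6 (220, nearest 184), Mlec (24, nearest 18), Atp5o (580, nearest 545) and Lum (42, nearest 25). The lowest array lay apart there for Fgg (2709, nearest 3051), Gm2a (87, nearest 104) and Sec11c (26, nearest 28). In the arrays labelled luciferase the highest array lay apart for Hc (1653, nearest 1235), Lamp1 (1215, nearest 1059), H2-T23 (1316, nearest 1144), Fgg (4200, nearest 4132), Cyp1a2 (1768, nearest 1598), Elovl5 (1202, nearest 804) and Adgrv1 (21, nearest 15). For Hc, Lamp1 and H2-T23 this was replicate 2.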

How the results depend on the processing

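Of 88 called genes named in the text, 47 kept the call in every setting other than the replicate block. The 251 calls became 402 with a filter at a group mean of 16, 382 with robust eBayes and 189 to 254 when 1 array was left out. The 91 higher genes became 52 under common-median scaling, 172 with the filter, 157 with robust eBayes, 56 in one fit of all 31 arrays and 54 to 104 without 1 array. The 160 lower genes became 286 under common-median scaling and 125 to 150 without 1 array. With the replicate block, whose numbers did not pair the arrays, 43 genes were called, 11 higher and 32 lower. The lower genes shared with Xbp1 ko then numbered 22, the lower ER machinery genes 1 and the lower plasma protein genes 1. ER machinery genes numbered 11 after quantile normalization, 10 under common-median scaling and 3 to 7 without 1 array. Ern1 kept its direction and call in each setting (0.67 to 3.30). Signs turned for Xbp1 (-0.15 to 0.01 without 1 array, above 0 without IRE1 replicate 1), Dnajb9 (-0.05 after quantile normalization and under common-median scaling, and -0.05 to 0.12 without 1 array, below 0 without luciferase replicate 3 or IRE1 replicate 4) and Ddost (-0.11 to 0.01 without 1 array, above 0 without luciferase replicate 4 or IRE1 replicate 2). The cause was not tested. Intensities near the floor, in whole numbers, limit the dim genes.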

Other observations

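Some uncalled genes, chosen after their values were seen, varied widely among the arrays labelled IRE1. Socs2, which restrains growth hormone signalling, read 19, 11, 14 and 14 in the arrays labelled luciferase and 20, 66, 81 and 168 in those labelled IRE1 (log2 difference 2.19; limma adjusted p = 0.148). Cish, another gene induced by that hormone, read 13, 10, 16 and 8 against 11, 75, 102 and 79 (2.16; limma adjusted p = 0.192). Onecut1, a hepatocyte transcription factor, read 22, 11, 12 and 14 against 14, 70, 58 and 137 (1.90; limma adjusted p = 0.216). Bcl6, a repressor, read 106, 88, 110 and 126 against 116, 35, 57 and 15 (-1.30; limma adjusted p = 0.35). In each of these 4 genes replicate 1 of the arrays labelled IRE1 lay within or next to the range of the arrays labelled luciferase. Without that array, Socs2 (2.76), Cish (2.90) and Onecut1 (2.53) were called by limma at the same threshold, while Bcl6 (-1.78) was not. The array was singled out from these same values, so the calls without it lend no support. Leaving out any other array gave no call for these genes (limma adjusted p up to 0.295, 0.34 and 0.367 for Socs2, Cish and Onecut1). Socs2, Cish and Onecut1 were also called in one fit of all 31 arrays, and Socs2 under common-median scaling and with the filter at a group mean of 16.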
